A study of Mus musculus with 48 samples.

Results

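The genes described here are 9 markers of the CA2 and CA3 fields of the mouse hippocampus. Rgs14, Amigo2, Pcp4 and Necab2 are CA2-enriched, and Bok, Cpne4, Iyd, Cpne7 and Dkk3 are CA3-enriched. They were picked by symbol, as known field markers and with earlier results of these data known. All are among the 47569 Ensembl gene IDs present in the RNA tables of both materials. Each matched 1 gene ID and passed the filter on low counts in both materials. The study compared adult C57BL/6J mice carrying a conditional knockout of Setd1b, abbreviated cKO in the labels, with controls, all aged 4 to 6 months. RNA-seq was made from hippocampal CA neurons (3 cKO and 3 control libraries) and from whole CA tissue (6 and 6). ChIP-seq of 4 histone marks was made from sorted neuronal nuclei, with 4 cKO and 4 control libraries for the trimethyl mark on lysine 4 of histone H3 (H3K4me3). The promoter that drives the Cre recombinase, the deleted exons, the genotype of the controls beyond that word, and whether libraries came from separate animals are not given in the sources used here, so p-values measure the spread between libraries, which may be partly technical.

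Pyramidal neurons of the hippocampus proper are divided into the fields CA1, CA2 and CA3, which differ in their inputs, their plasticity and the genes they express. CA3 neurons receive mossy fibres from the dentate gyrus and excite each other, and CA2 neurons resist the long-term potentiation typical of their neighbours and take part in social memory. Setd1b encodes a catalytic subunit of one of the complexes that methylate lysine 4 of histone H3, and H3K4me3 marks the start regions of expressed genes. Among the CA2 markers, Rgs14 is a regulator of G protein signalling that restrains potentiation in CA2, Amigo2 is a leucine-rich repeat adhesion protein of the cell surface, Pcp4 is a small regulator of calmodulin, and Necab2 is a neuronal EF-hand protein that binds calcium. Among the CA3 markers, Bok belongs to the BCL-2 family of apoptosis regulators, Cpne4 and Cpne7 are copines that bind phospholipids in the presence of calcium, Iyd is a deiodinase that recovers iodide from iodotyrosines, and Dkk3 is a secreted glycoprotein of the Dickkopf family.

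The members lie on 8 chromosomes, at these positions in RefSeq annotation GRCm38.p6. Rgs14 (ENSMUSG00000052087) spans chromosome 13 from 55369732 to 55384687. Amigo2 (ENSMUSG00000048218) spans chromosome 15 from 97244074 to 97247287. Pcp4 (ENSMUSG00000090223) spans chromosome 16 from 96467606 to 96525793. Necab2 (ENSMUSG00000031837) and Cpne7 (ENSMUSG00000034796) are both on chromosome 8, from 119446719 to 119472640 and from 123117313 to 123135185. Bok (ENSMUSG00000026278) spans chromosome 1 from 93685575 to 93695770. Cpne4 (ENSMUSG00000032564), the longest at 467844 bp, spans chromosome 9 from 104566701 to 105034544. Iyd (ENSMUSG00000019762) spans chromosome 10 from 3540274 to 3554880. Dkk3 (ENSMUSG00000030772) spans chromosome 7 from 112116019 to 112159482. The first exonic bases of Amigo2 overlap the gene Pced1b (chromosome 15, 97246973 to 97385693), Cpne7 contains the miRNA gene Mir7080, and no other member overlaps a gene of the table. Whether reads were counted by strand is not given in the sources used here, so reads of Amigo2 and Pced1b could be shared where they overlap. The edgeR log2 difference of Pced1b between genotypes was 0.11 in neurons (adjusted p = 0.638) and 0.18 in whole CA (adjusted p = 0.641), of the opposite sign to those of Amigo2 below.

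The sequences before the start are shown for the 4 members that were called lower in whole CA RNA and have an entry in the RefSeq promoter table, since their H3K4me3 peaks are compared below. Each run is the 250 bases before a start of that table, 5′ to 3′ on the strand of the gene, with CpG dinucleotides in capitals. CpG was marked because complexes of this methyltransferase family carry a subunit that binds unmethylated CpG. They are chr15:97247288-97247537 (minus strand, Amigo2), chr16:96467356-96467605 (plus strand, Pcp4), chr9:104569405-104569654 (plus strand, the first of 2 Cpne4 starts in that table, which lies 2954 bp inside the annotated gene) and chr10:3540024-3540273 (plus strand, Iyd).
Amigo2: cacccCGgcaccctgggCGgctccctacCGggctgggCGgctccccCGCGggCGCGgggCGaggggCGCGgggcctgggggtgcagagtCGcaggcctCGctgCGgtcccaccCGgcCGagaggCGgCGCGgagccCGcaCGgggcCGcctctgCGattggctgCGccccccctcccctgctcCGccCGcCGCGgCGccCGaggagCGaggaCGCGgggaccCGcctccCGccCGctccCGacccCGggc
Pcp4: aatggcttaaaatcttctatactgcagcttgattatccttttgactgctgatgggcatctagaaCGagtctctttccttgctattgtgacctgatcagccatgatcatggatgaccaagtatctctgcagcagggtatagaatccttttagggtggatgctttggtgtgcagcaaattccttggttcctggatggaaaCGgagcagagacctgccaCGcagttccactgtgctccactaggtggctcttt
Cpne4: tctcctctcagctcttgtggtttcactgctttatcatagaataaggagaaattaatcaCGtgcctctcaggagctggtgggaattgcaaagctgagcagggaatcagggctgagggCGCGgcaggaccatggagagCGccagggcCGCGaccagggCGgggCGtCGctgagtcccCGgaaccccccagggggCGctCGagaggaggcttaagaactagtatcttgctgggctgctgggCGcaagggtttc
Iyd: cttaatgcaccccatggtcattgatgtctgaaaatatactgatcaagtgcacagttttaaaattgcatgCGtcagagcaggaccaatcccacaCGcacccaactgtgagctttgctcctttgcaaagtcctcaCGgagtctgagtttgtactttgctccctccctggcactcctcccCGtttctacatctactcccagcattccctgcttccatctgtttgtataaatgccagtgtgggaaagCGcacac
They differ widely in base composition. Amigo2 has 38 CpG and 84.0% G and C, and 98.4% of the 32851 promoters of the table have as many CpG or fewer. Cpne4 has 13 CpG, Iyd has 5 and Pcp4 has 3, against a median of 6 over all promoters. The motif GGGCGG, searched on both strands with all matches counted, occurs 4 times before Amigo2 and 1 time before Cpne4, and in 32.7% of all promoters. TATAAA on either strand occurs 1 time, before Iyd, and in 12.4% of all promoters. These are matches of letters in a fixed window and describe the sequence only.

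Library depth was 55735204 to 69071100 counts in the neuron RNA and 14878128 to 20100286 in the whole CA RNA. Neuron libraries held less RNA of astrocytes and microglia than whole CA: the summed level of 5 astrocyte markers was 25.4 to 32.1 CPM, counts scaled to the library size, there against 1342 to 1727 CPM in whole CA, and 5 microglia markers summed to 8.12 to 9.70 CPM against 233.2 to 322 CPM. The 4 choroid plexus markers summed to like levels, 7.97 to 13.8 CPM against 5.11 to 14.4 CPM, but did not move alike. Of the 3 tested in the control libraries, 2 were called lower in neuron RNA and 1 higher (edgeR, log2 differences from -5.76 to 0.96, median -4.54). The 9 dentate granule markers were more abundant in neuron RNA, 206.7 to 342.6 CPM against 56.4 to 153.3 CPM, and 8 of the 9 were called higher there in the control libraries (edgeR, median log2 difference 1.15). Setd1b counts did not mirror the labels. The Setd1b level was 64.6 ± 6.16 CPM (SD, n = 3) in neuron libraries labelled cKO and 54.5 ± 9.62 CPM (SD, n = 3) in controls (log2 difference 0.25, edgeR adjusted p = 0.361). In whole CA it was higher in libraries labelled cKO, 59.4 ± 6.29 CPM against 39.6 ± 8.68 CPM (SD, n = 6 each; log2 difference 0.59, edgeR adjusted p = 0.00415). Counts over the whole gene do not isolate the deleted exons, so this is no check of the deletion, and every direction below is between libraries as labelled. CPM values below are scaled to the effective library size of the fit in each material and are compared between libraries, not between genes.

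In whole CA tissue, 5 of the 9 markers fell in the libraries labelled cKO: the CA2 markers Amigo2 and Pcp4 and the CA3 markers Iyd, Cpne4 and Cpne7. All 9 estimates were below 0, from -1.42 to -0.04 on the log2 scale. The background of this comparison was 4.17% of 15362 genes called by edgeR at an adjusted p under 0.05 (2.79% called lower, and 50.8% with an estimate below 0). In neuron RNA 1 of the 9, Amigo2, was called, against a background of 2.75% of 19622 genes, and 8 of the 9 estimates were below 0, as were 46.5% of all. In bulk RNA, fewer cells of a type and less RNA per cell cannot be told apart.

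**Figure D1:**
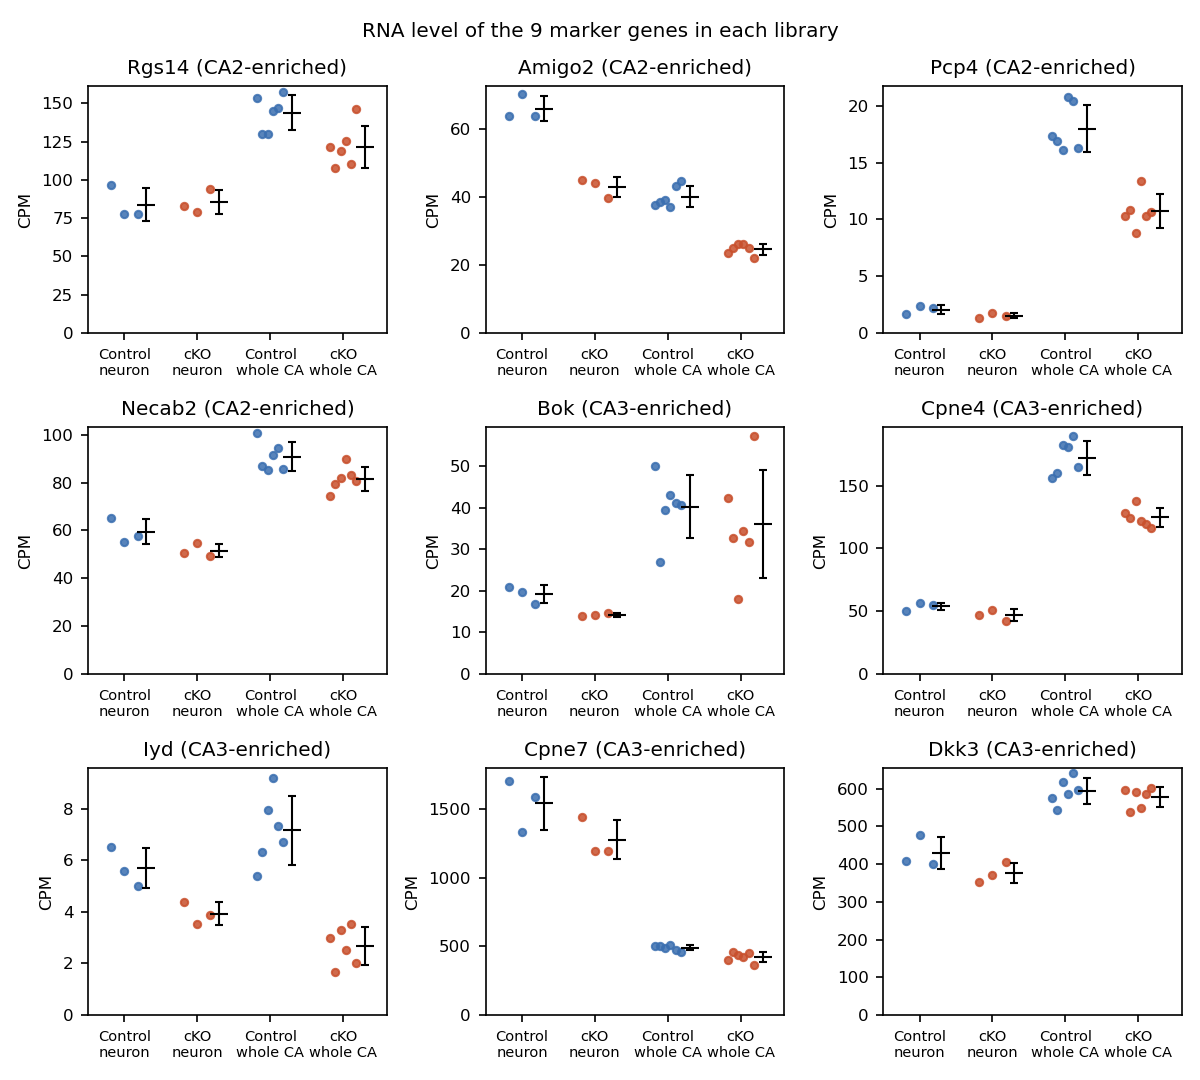
Level of each marker in CPM (linear axis from 0) in every RNA library: blue points are libraries labelled control and orange points libraries labelled cKO, and black bars are the mean ± SD of each group (3 neuron and 6 whole CA libraries a group). The groups do not overlap for Amigo2 in either material, nor for Pcp4, Cpne4 and Iyd in whole CA, and they overlap for Dkk3 and Rgs14 in both materials.

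Among the CA2 markers, Amigo2 was the only one called in both materials. Its neuron level was 63.9, 70.2 and 63.9 CPM in the control libraries and 44.9, 44.2 and 39.7 CPM in those labelled cKO. Every cKO library thus lay below every control library, and the level fell by 0.62 on the log2 scale (SE 0.086, edgeR adjusted p = 0.0049), to 65.1% of control. In whole CA the control libraries ran from 37.1 through a median of 38.8 to 44.6 CPM and the cKO libraries from 22.2 through 24.98 to 26.2 CPM. The groups were again apart, and the level fell by 0.70 (SE 0.068, edgeR adjusted p = 2.23e-06), to 61.6% of control.

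Pcp4 fell in whole CA. Its control libraries there ran from 16.1 through a median of 17.1 to 20.8 CPM and its cKO libraries from 8.83 through 10.5 to 13.4 CPM, with no overlap and a log2 difference of -0.74 (SE 0.10, edgeR adjusted p = 0.000137). In neuron RNA Pcp4 was scarce, with 84 to 150 counts a library: 1.67, 2.36 and 2.18 CPM in controls and 1.31, 1.73 and 1.498 CPM in cKO libraries. These groups overlapped, and the log2 difference of -0.45 (95% confidence interval -0.86 to -0.05) had an edgeR adjusted p of 0.25.

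Rgs14 and Necab2 were not called in either material. Rgs14 measured 96.4, 77.5 and 77.5 CPM in control neurons and 83.2, 78.9 and 94.0 CPM in cKO neurons, with fully mixed groups and a log2 difference of 0.03 (interval -0.22 to 0.28). In whole CA its control libraries ran from 129.9 through 146 to 157.1 CPM and its cKO libraries from 107.5 through 120 to 146.3 CPM. That difference, -0.24 on the log2 scale, missed the threshold (edgeR adjusted p = 0.076), while DESeq2 called it (adjusted p = 0.0423) and so did edgeR without cKO replicate 6 (adjusted p = 0.0121), the library with the highest cKO value. Necab2 measured 65.3, 55.4 and 57.5 CPM in control neurons against 50.5, 54.6 and 49.3 CPM, groups that do not overlap, with a log2 difference of -0.21 (edgeR adjusted p = 0.283). Its whole CA difference was -0.15 (edgeR adjusted p = 0.184), with cKO libraries at 74.2 to 89.9 CPM and controls at 85.2 to 100.6 CPM.

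Among the CA3 markers, Iyd had the most negative difference. Its whole CA control libraries ran from 5.397 through a median of 7.02 to 9.19 CPM and its cKO libraries from 1.66 through 2.76 to 3.51 CPM. No cKO library reached the lowest control library, and the level fell by 1.42 on the log2 scale (SE 0.17, edgeR adjusted p = 3.74e-05), to 37.5% of control. These values rest on few reads, 25 to 69 in each cKO library and 80 to 150 in each control. In neuron RNA, Iyd measured 6.52, 5.59 and 5.0 CPM in controls and 4.398, 3.52 and 3.87 CPM in cKO libraries. The neuron groups were also apart, but the difference of -0.54 (interval -0.84 to -0.23) was not called by edgeR (adjusted p = 0.0807), while DESeq2 gave an adjusted p of 0.0389.

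The copines Cpne4 and Cpne7 both fell in whole CA, the second by a margin close to the threshold. Cpne4 control libraries ran from 156.3 through 172.9 to 189.3 CPM and cKO libraries from 116.5 through 123.2 to 137.9 CPM. The groups did not overlap, and the level fell by 0.47 on the log2 scale (SE 0.060, edgeR adjusted p = 7.77e-05). Cpne7 control libraries ran from 460.3 through 497.8 to 508.1 CPM and cKO libraries from 361.4 through 430.6 to 460.4 CPM, touching at 1 library of each group. It fell by 0.21 (edgeR adjusted p = 0.0453), a call that was lost in 8 of 12 fits that left out 1 library, with adjusted p up to 0.117, and with other scale factors or no count filter. In neurons neither copine was called: Cpne4 measured 50.5, 56.3 and 54.8 CPM in controls against 46.9, 51.3 and 41.9 CPM, and Cpne7 1700, 1330 and 1588 CPM against 1440, 1190 and 1195 CPM. The log2 differences were -0.21 (edgeR adjusted p = 0.31) and -0.27 (edgeR adjusted p = 0.321).

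Bok and Dkk3 were not called in either material. Bok measured 20.9, 19.8 and 16.9 CPM in control neurons against 13.8, 14.1 and 14.6 CPM in cKO neurons. The groups were apart and tight, with a log2 difference of -0.44 (interval -0.67 to -0.21), yet the edgeR adjusted p was 0.0593, and DESeq2 gave 0.0105. In whole CA, Bok was the most variable member, from 26.9 to 50.1 CPM in controls and from 18.01 to 57.2 CPM in cKO libraries. Its coefficient of variation among cKO libraries was 36.1%, against 4.69% for Dkk3, and the log2 difference of -0.15 had an interval of -0.55 to 0.24. Dkk3 measured 408.8, 478.3 and 400.3 CPM in control neurons and 352.3, 371.7 and 404.5 CPM in cKO neurons (log2 difference -0.19, edgeR adjusted p = 0.389). In whole CA, Dkk3 control libraries ran from 542.8 to 640 CPM and cKO libraries from 537 to 602.7 CPM. The interval of that log2 difference, -0.15 to 0.07, is the narrowest of the 9 and places the cKO level between 90.4% and 105% of control.

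**Figure D2:**
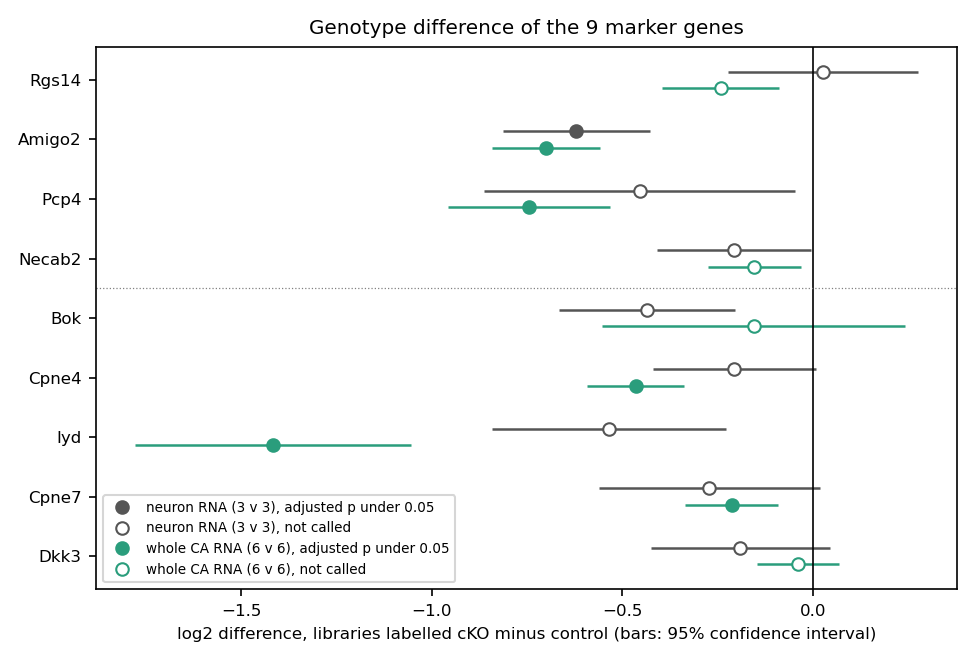
Log2 difference of each marker between libraries labelled cKO and control (x axis) in neuron RNA (grey) and whole CA RNA (green), with 95% confidence intervals and filled points where the edgeR adjusted p was under 0.05. Amigo2 is filled in both materials, and the whole CA value of Iyd, -1.42, lies farthest from 0.

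The groups were apart, with every cKO library below every control library, for 4 of 9 members in neuron RNA (Amigo2, Necab2, Bok and Iyd), where 12.4% of all genes tested showed the same with 3 libraries a group. In whole CA the 4 were Amigo2, Pcp4, Cpne4 and Iyd, where the background with 6 libraries a group was 1.93%. The whole CA libraries were sequenced on 2 lanes, named in their file names, with 3 libraries of each genotype on each. Within lane 1 the log2 differences of Amigo2, Pcp4, Cpne4, Iyd and Cpne7 were -0.63, -0.75, -0.35, -1.30 and -0.21, and within lane 2 they were -0.76, -0.74, -0.58, -1.52 and -0.22. On either lane alone Amigo2, Pcp4 and Iyd were called. Cpne4 was called on lane 2 but not on lane 1 (edgeR adjusted p = 0.0532), and Cpne7 on neither.

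Whether the genotype difference itself differed between the materials was tested by an interaction in a fit of all 18 RNA libraries, which called 0.160% of 17523 genes. None of the 9 members was called, and 2 of the 9 had an unadjusted p under 0.05 (Iyd and Cpne4; background 8.11%). In the same contrast DESeq2 called 78 genes, and no member was called by it or under any other alternative. The estimate for Iyd was 0.89 (interval 0.36 to 1.42, edgeR adjusted p = 0.351), the neuron difference being the smaller. For Cpne4 it was 0.27 (interval 0.04 to 0.49) and for Amigo2 0.09 (interval -0.14 to 0.31). Calls made in whole CA and missed in neurons are therefore not shown to differ between the materials.

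Levels of the members between the materials were compared in the control libraries. All 9 differed by edgeR, against a background of 83.0%, and neuron isolation, preparation and sequencing run cannot be told apart there. The materials may also differ in the part of the cell sampled, which was not tested, so these are not differences of expression by neurons alone. Pcp4 was far lower in neuron RNA than in whole CA (log2 difference -3.29, interval -3.61 to -2.98), followed by Cpne4 (-1.85), Bok (-1.24), Rgs14 (-0.95), Necab2 (-0.78), Dkk3 (-0.64) and Iyd (-0.50). From Cpne4 to Iyd in that order, the interval of each gene overlaps that of the next. Cpne7 (1.48, interval 1.30 to 1.65) and Amigo2 (0.54, interval 0.39 to 0.70) were higher in neuron RNA. Scaling by library size alone moved the median of all genes by 0.25 in place of 0.07. The Iyd call was lost in 3 of 9 alternatives. Among them were that scaling (edgeR adjusted p = 0.0834) and the fit without control neuron replicate 3 (edgeR adjusted p = 0.0658).

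Other genes of the same fields were read from lists of CA2 and CA3 pyramidal markers that exclude the members. These lists, and those of other cell types below, were chosen with earlier results of these data known. Their counts are therefore no independent support for the differences of the members. Of 12 other CA2 markers, 5 fell in whole CA and 0 rose, with a median log2 difference of -0.36 against 0.00 over all genes tested. Named by smallest adjusted p, they included the vasopressin receptor gene Avpr1b (-2.0, edgeR adjusted p = 0.000412), the extracellular matrix gene Vit (-0.94, edgeR adjusted p = 7.53e-05) and the mineralocorticoid receptor gene Nr3c2 (-0.36, edgeR adjusted p = 0.000234). In neuron RNA 1 of the 12, Vit, fell (-0.77, edgeR adjusted p = 0.02), and the median was -0.30 against 0.02 over all genes. Of 10 other CA3 markers, 6 fell in whole CA and 0 rose (median -0.40), among them the transcription factor gene St18 (-1.24, edgeR adjusted p = 2.63e-09), the serine protease gene Prss35 (-0.80, edgeR adjusted p = 3.69e-05) and the kainate receptor gene Grik4 (-0.42, edgeR adjusted p = 0.000132). In neuron RNA 3 of the 10 fell, with a list median of -0.16. They were St18 (-1.44, edgeR adjusted p = 0.000295), the cadherin gene Cdh24 (-1.23, edgeR adjusted p = 0.00207) and Prss35 (-0.65, edgeR adjusted p = 0.02). The neuron calls of Vit and Prss35 were each lost in 4 of 6 fits that left out 1 library, and those of St18 and Cdh24 in 0.

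Markers of neighbouring neurons also moved. Of 9 CA1 markers, 2 fell in neuron RNA, the proteoglycan gene Dcn (-1.92, edgeR adjusted p = 4.83e-05) and the endoplasmic reticulum gene Wfs1 (-1.11, edgeR adjusted p = 0.000219). In whole CA 3 of the 9 fell and 1, the receptor kinase gene Tyro3, rose (0.31, edgeR adjusted p = 0.00561), and the list's median was 0.01. Of 9 dentate granule markers, 5 fell in neuron RNA (median -0.60), led by Lct (-1.56, edgeR adjusted p = 0.000295), Tdo2 and Trpc6 (-0.70 and -0.60, edgeR adjusted p = 0.0201 and 0.0259). In whole CA 2 of the 9 fell (median -0.54), Lct (-1.86, edgeR adjusted p = 1.38e-05) and Dsp (-0.96, edgeR adjusted p = 0.0472). Leaving out 1 library lost the Dsp call in 9 of 12 fits and the neuron calls of Tdo2 and Trpc6 in 4 of 6 each. The Lct calls were lost in 0. The summed level of the dentate list in whole CA ranged from 56.4 to 122.4 CPM in cKO libraries and from 106.8 to 153.3 CPM in controls. The 4 pan-neuronal markers and the 6 interneuron markers had no call by edgeR in either material, with 0 of either list at an unadjusted p under 0.05 in neurons and 1 of each in whole CA, and medians of -0.04 and -0.04 in neurons and 0.08 and 0.06 in whole CA. Among non-neuronal lists in whole CA, 1 of 5 astrocyte markers (Aqp4, -0.38, edgeR adjusted p = 0.0122), 1 of 5 microglia markers (Cx3cr1, -0.22, edgeR adjusted p = 0.0434) and 1 of 3 tested choroid plexus markers (Prlr, -0.64, edgeR adjusted p = 0.0192) fell. Of the others, 0 of 5 oligodendrocyte and 0 of 4 endothelial markers did. An edgeR unadjusted p under 0.05 was found for 4 microglia, 2 astrocyte, 1 choroid plexus, 0 oligodendrocyte and 1 endothelial marker. All estimates of the microglia, astrocyte and tested choroid plexus lists were below 0, with medians of -0.22, -0.16 and -0.28. The oligodendrocyte and endothelial medians were 0.06 and -0.12. The Cx3cr1 call was lost in 11 of 12 fits without 1 library, the Prlr call in 2 and the Aqp4 call in 0. No non-neuronal marker was called by edgeR in neuron RNA, 0 had an unadjusted p under 0.05, and 3 of 4 endothelial and 1 of 4 choroid plexus markers passed the filter. The part of these other cells in the members' differences was not tested.

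**Figure D3:**
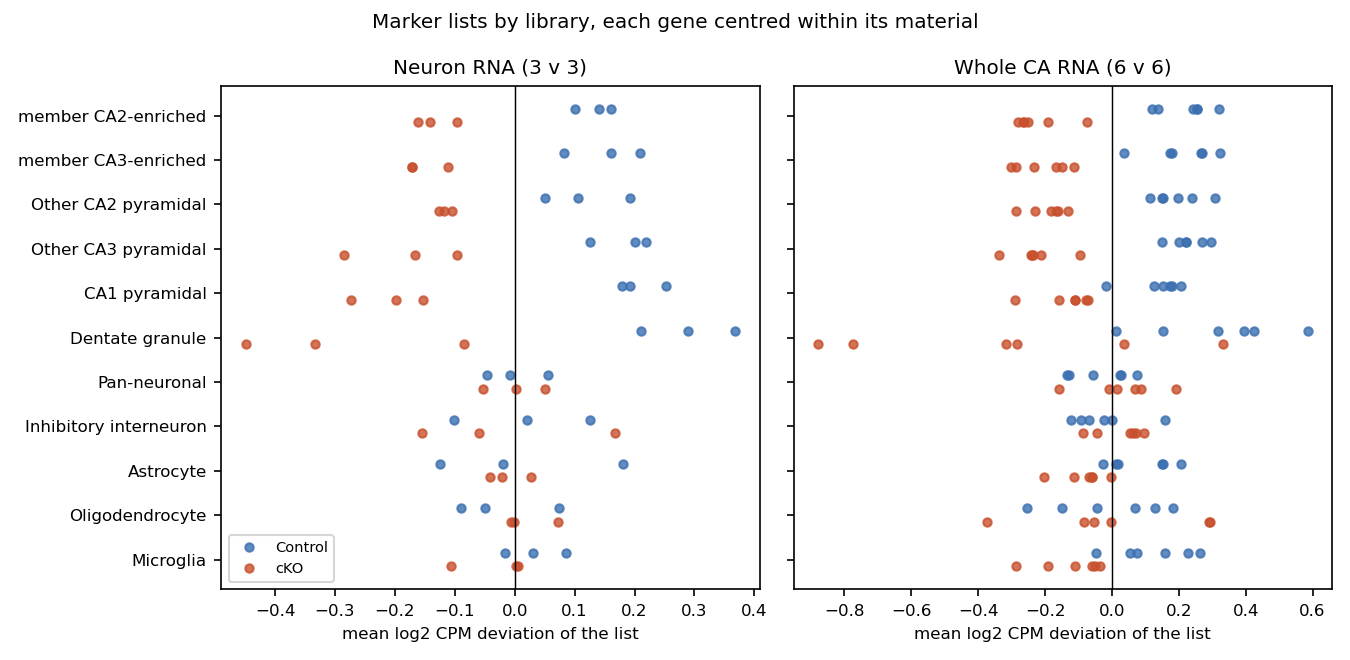
Mean over each marker list of the log2 CPM of its genes, centred on each gene's mean within a material (x axis), for every neuron library (left) and whole CA library (right), blue for control and orange for cKO. Every cKO library lies left of every control library for both member lists and both other pyramidal CA2 and CA3 lists in both materials. The same holds for the dentate list in neurons and for the CA1 list in both materials. In whole CA, 5 of the 9 CA1 genes had a log2 difference above 0. The pan-neuronal libraries overlap, and the dentate list in whole CA spreads most, from -0.88 to 0.59.

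For each library the members of a field were summarised as the mean deviation of their log2 CPM from the gene's mean in that material. The CA2 members ranged from -0.16 to -0.10 in cKO neurons and from 0.10 to 0.16 in control neurons, and from -0.28 to -0.08 and from 0.12 to 0.32 in whole CA. The CA3 members ranged from -0.17 to -0.11 and from 0.08 to 0.21 in neurons, and from -0.30 to -0.11 and from 0.04 to 0.32 in whole CA. Lists of neighbouring neurons were also apart. The CA1 list ranged from -0.27 to -0.15 in cKO and from 0.18 to 0.25 in control neurons, and from -0.29 to -0.07 and from -0.02 to 0.21 in whole CA. In whole CA this mean does not describe most of the CA1 list. There 4 of its 9 log2 differences were below 0 and 5 above, with a median of 0.01 and Dcn at -2.25. The dentate list ranged from -0.45 to -0.09 and from 0.21 to 0.37 in neurons, without overlap, and from -0.88 to 0.33 and from 0.01 to 0.59 in whole CA, with overlap. The part of dentate or CA1 RNA in the members' differences was not tested.

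The gene whose profile was nearest to each member was sought over the 18 RNA libraries, by the root mean square difference of log2 CPM centred within each material, among 13041 genes. Amigo2 was nearest to Fam19a1 (0.11), Cpne4 to Erc2 (0.088), Rgs14 to Aacs (0.10) and Pcp4 to Shroom2 (0.16). Iyd was nearest to Efcab6, at the largest distance of the 9 (0.26), Bok to Fbxl15 (0.18), Cpne7 to Akap13 (0.090), Necab2 to Cabp7 (0.072) and Dkk3 to Pcsk2 (0.066). The members themselves were left out of the genes searched, so none of the 9 could be nearest to another member. Genes with little variation are close to many others by this measure, which describes these libraries only.

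In sorted neuronal nuclei, the H3K4me3 peaks at most of these genes were narrower in the libraries labelled cKO. The measure was the number of base pairs covered by the authors' peaks within 2500 bp on either side of the RefSeq start, tested by limma on log2(bp + 100), which understates changes of small values. It covers width, not height. Of the 6 members with a tested promoter window, 5 fell (Amigo2, Pcp4, Cpne4, Iyd and Bok). The Iyd window passed the filter on peaks only through the control libraries and so had to differ, and without it the count is 4 of 5. The background was 22.8% of 18245 promoter windows called (21.9% lower), so a fall of H3K4me3 cover was common across the genome. Peak number was 46073 to 55939 in cKO libraries and 46408 to 51537 in controls. The peak caller used 1 input library per genotype, so input and genotype cannot be told apart.

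Amigo2 had the broadest promoter mark of the 6. Its window held 3974, 3875, 3745 and 3822 bp under peaks in the control libraries and 2538, 2279, 2802 and 2722 bp in the cKO libraries. The groups were far apart, and the cover fell by 0.56 on the log2 scale (SE 0.064, limma adjusted p = 0.0012), to 67.1% of control. The loss lay on 1 side of the start. Before the start, in the CpG-rich stretch printed above and beyond it, the cover was 1504 ± 30.7 bp in controls and 1412 ± 95.8 bp in cKO libraries (SD, n = 4 each), while after the start, over the gene, it was 2351 ± 114 bp and 1173 ± 136 bp. Among peaks that touch the window, control peaks ran to 4150, 3781, 3587 and 2593 bp past the start and cKO peaks to 1198, 1046, 1299 and 1253 bp. Peaks wholly beyond the window were not listed, so these need not be the ends of the control mark. The start of Pced1b lies inside the same window.

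Pcp4, whose upstream sequence holds 3 CpG, carried a mark that began at the start site. Its window held 2400, 2503, 2506 and 2411 bp in controls and 1634, 1707, 1738 and 1992 bp in cKO libraries. The cover fell by 0.46 on the log2 scale (SE 0.059, limma adjusted p = 0.00208), to 72.0% of control. Nearly all of it lay after the start in both groups, 2444 ± 68.3 bp against 1739 ± 172 bp (SD, n = 4 each). Control replicates 2 and 3 had 2501 bp there, which fills that side of the window, so cover past it is not measured. Over the whole gene with its flanks, a measure described below, the Pcp4 cover was 68.4% of control.

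The Cpne4 start used lies 2954 bp inside the annotated gene, so its window takes in part of the gene on both sides. It had 2934, 3685, 3597 and 3590 bp under peaks in controls and 1837, 2258, 2194 and 2328 bp in cKO libraries, and the cover fell by 0.66 on the log2 scale (SE 0.096, limma adjusted p = 0.00327). Before the start used, inside the gene, the cover was 1297 ± 167 bp in controls and 500 ± 49.5 bp in cKO libraries, and after it 2155 ± 192 bp and 1654 ± 176 bp (SD, n = 4 each). Both sides were apart between the groups. Among peaks that reach the window, a peak across the annotated gene start was listed in all 4 control libraries, 1103, 1264, 1516 and 1302 bp long. Such a peak was listed in 1 of 4 cKO libraries, 793 bp long. The other 3 cKO libraries had shorter peaks just inside the gene, of 146, 195 and 308 bp. The annotated start lies outside the window, so a peak there that ends before the window would not be listed. The second Cpne4 start of the table had 408 and 165 bp in 2 control libraries and 0 bp in the other 6 libraries, and did not enter the test.

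Iyd had a small peak in controls that was mostly missing in the cKO libraries. Its window held 873, 1042, 959 and 304 bp in controls and 0, 177, 0 and 0 bp in cKO libraries (log2 difference -2.69, limma adjusted p = 0.00556). All 4 control libraries had a peak there and 1 of 4 cKO libraries did, so the window entered the test through the group in which it was high. With peaks of -log10 q of at least 5 alone, the adjusted p was 0.0647.

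Bok and Necab2 showed smaller differences. Bok had 1979, 2340, 2236 and 2345 bp in controls and 1719, 1766, 1892 and 1879 bp in cKO libraries, and fell by 0.28 (limma adjusted p = 0.0168), a loss that lay after the start and was not called with the stricter peaks (adjusted p = 0.133). Necab2 had 2635, 2638, 2670 and 2613 bp in controls and 1841, 2498, 2517 and 2586 bp in cKO libraries. All 4 cKO libraries lay below all 4 controls, but 1 of them far below the rest, and the difference of -0.17 was not called (limma adjusted p = 0.29). The groups were apart with cKO lower for the 5 tested members other than Iyd, against 27.1% of all windows. Iyd was also apart, but its window entered the test through the controls alone.

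**Figure D4:**
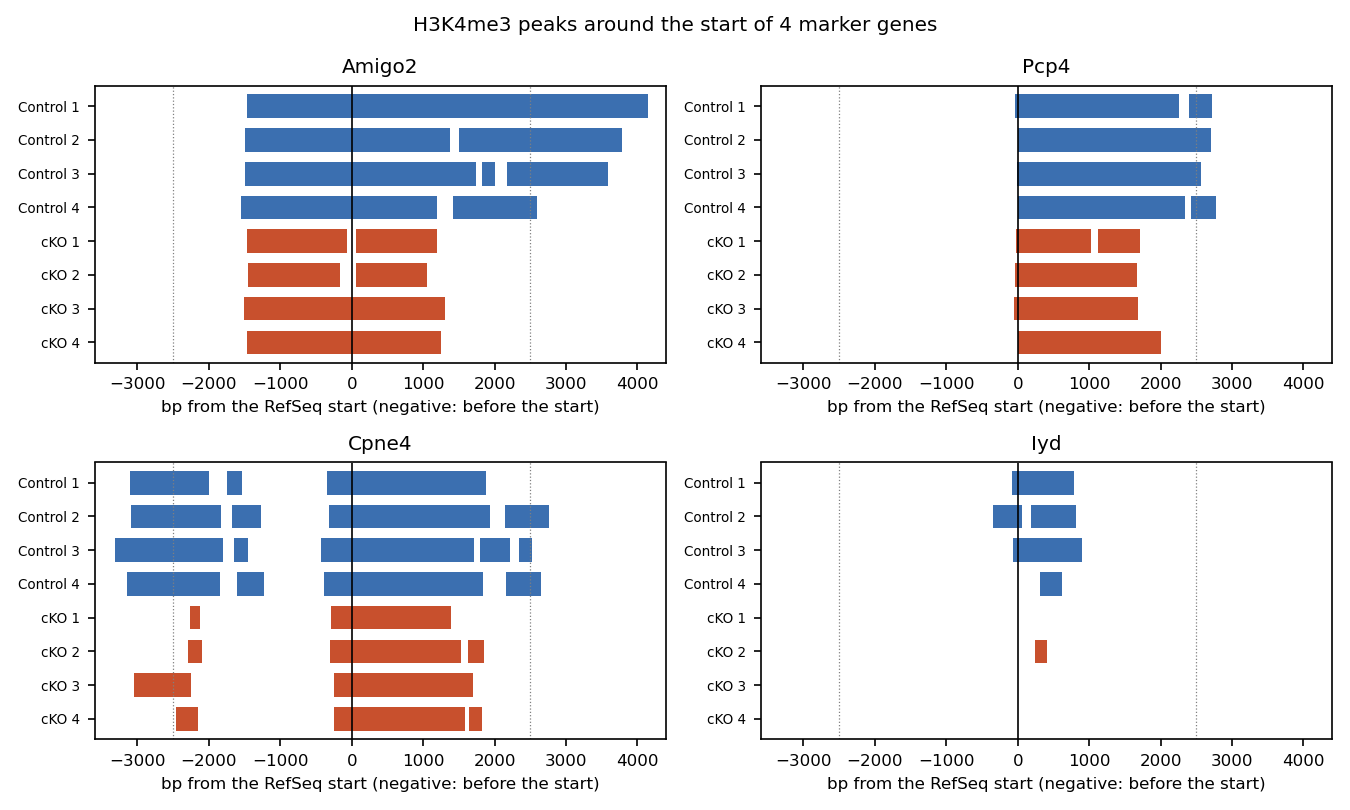
H3K4me3 peaks of each ChIP library around the first start in the RefSeq promoter table of 4 members (x axis, distance in bp along the gene's strand), blue for control and orange for cKO, with dotted lines at the edges of the 2500 bp windows. Peaks that touch the window are drawn whole, and peaks wholly beyond it are not drawn. The drawn control peaks of Amigo2 reach 2593 to 4150 bp past the start and the drawn cKO peaks 1046 to 1299 bp. Cpne4 has less cover on both sides of the start used, which lies 2954 bp inside the gene. Iyd has a peak in 1 of 4 cKO libraries.

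The promoter table holds no entry for Rgs14, Cpne7 and Dkk3, so H3K4me3 cover was also summed over each whole gene with 2500 bp on either side, a measure added after the promoter values were seen. It can take in peaks of neighbouring genes. Of all 16048 genes tested this way, 25.3% were called (24.1% lower), and of the 9 members 7 fell and 2 were not called. Iyd again entered through the controls alone, and without it 6 of 8 fell. Dkk3 had 5621, 5412, 5581 and 5413 bp in controls and 2515, 2714, 2631 and 2511 bp in cKO libraries, and the tight, separate groups show that it fell by 1.06 on the log2 scale (SE 0.043, limma adjusted p = 1.8e-05), to 47.1% of control. Rgs14 had 3711, 3390, 3593 and 3613 bp in controls and 2126, 2223, 2309 and 1933 bp in cKO libraries, and fell by 0.71 (SE 0.062, limma adjusted p = 0.000191), to 60.1% of control. Both are members whose RNA was not called in either material. Cpne7 had 4361, 3705, 4707 and 3896 bp against 2423, 3770, 2975 and 3111 bp, groups that overlap, and fell by 0.44 (limma adjusted p = 0.0438), a call lost in 7 of 8 fits without 1 library (adjusted p up to 0.11).

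The other members kept their direction over the whole gene. Amigo2 fell by 1.07 (limma adjusted p = 5.13e-05), Pcp4 by 0.54 (limma adjusted p = 0.00583), Bok by 0.35 (limma adjusted p = 0.0168), and Iyd had the same value as at its promoter. Cpne4 at -0.41 (limma adjusted p = 0.0643) and Necab2 at -0.22 (limma adjusted p = 0.344) were not called. Beside each other, the RNA and H3K4me3 values did not rank the members alike: Dkk3 and Amigo2 had like differences of gene cover (-1.06 and -1.07) with whole CA RNA differences of -0.04 and -0.70. These cover values come from neuronal nuclei and the whole CA RNA from all cells of the tissue, and the neuron RNA differences of the 2 genes were -0.19 and -0.62. The H3K4me3 libraries ran on 2 lanes, 3 libraries of each genotype on the first and 1 of each on the second, and all promoter and gene means tested here were lower in cKO on both, other than Necab2 over the whole gene (4673 bp in the control and 4774 bp in the cKO library of the second lane).

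**Figure D5:**
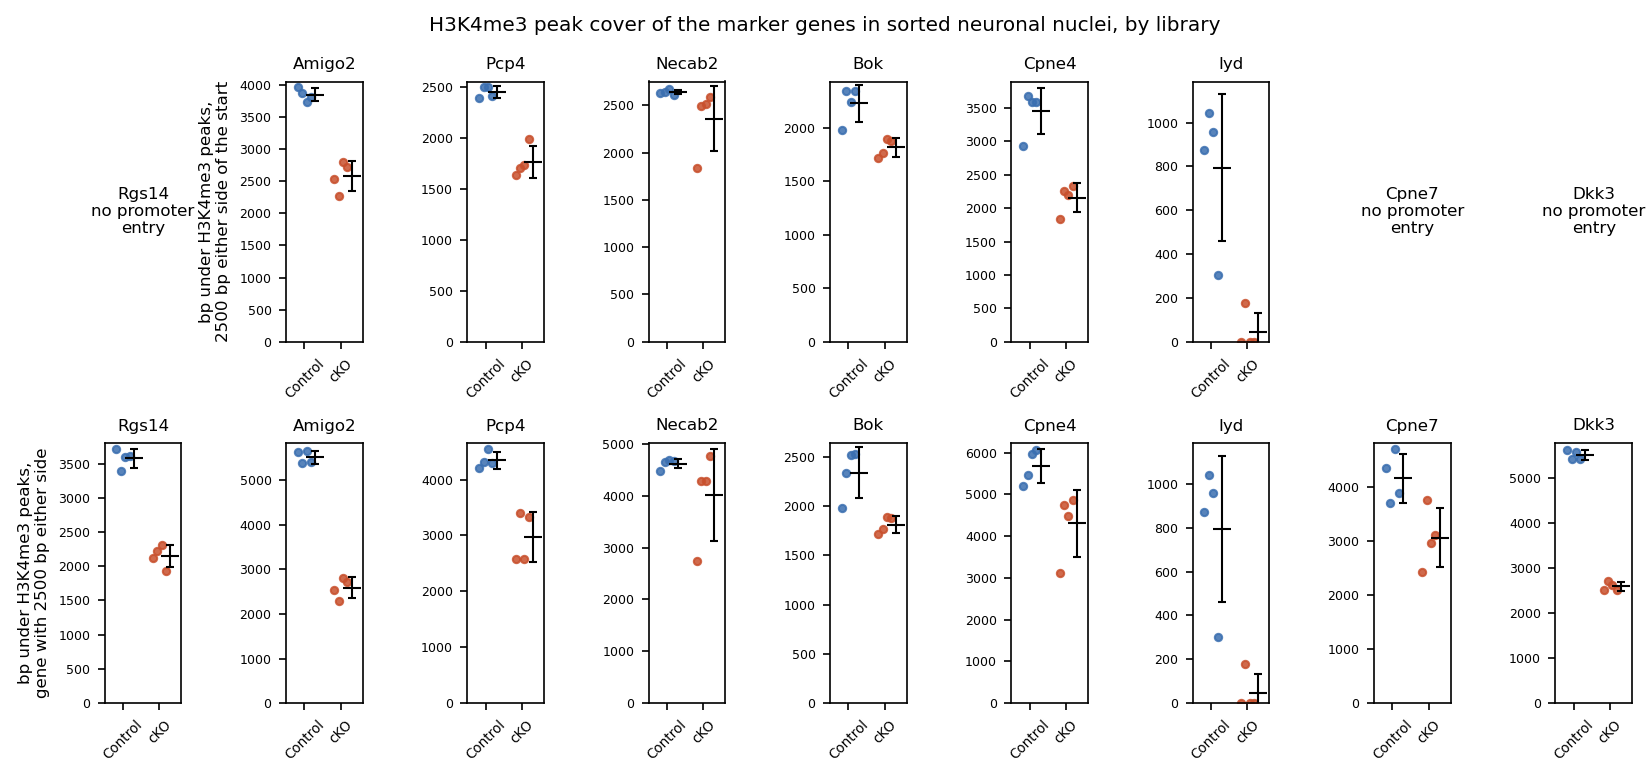
Base pairs under H3K4me3 peaks (linear axis from 0) within 2500 bp of the first start in the RefSeq promoter table (top) and over the whole gene with 2500 bp on either side (bottom), 1 point per library, blue for control and orange for cKO, with mean ± SD (n = 4 each). Dkk3 and Rgs14 show separate groups over the whole gene, and Necab2 and Cpne7 overlap there.

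Few differences of the acetyl marks and H3K4me1 were called at these genes, and few were called over all windows. For acetylation of lysine 27 of H3 (H3K27ac; 3 control and 4 cKO libraries), 0 of the 6 member windows other than that of Iyd were called by limma, against a background of 0.433% of windows. An unadjusted p under 0.05 was found for 2483 of all 18247 windows and for 1 of the 6, at Amigo2. The Iyd window was called, with 333 ± 152 bp (SD, n = 3) in controls and 0 bp in all 4 cKO libraries (log2 difference -2.05, limma adjusted p = 0.0232). It passed the filter through the 3 control libraries alone and so had to differ, and the call was lost without any 1 cKO library (adjusted p 0.0716 to 0.0773). Amigo2 had 1997 ± 286 bp against 1448 ± 271 bp of H3K27ac, groups that do not overlap, as in 10.8% of windows (log2 difference -0.45, limma adjusted p = 0.326). For acetylation of lysine 9 (H3K9ac; 4 control and 3 cKO libraries), 0 of 6 tested windows were called by limma against a background of 0.951%. At an unadjusted p under 0.05 were 3277 of all 18831 windows and 1 of the 6. That window was Pcp4, with 1833 ± 273 bp (SD, n = 4) in controls and 1175 ± 394 bp (SD, n = 3) in cKO libraries, groups apart as in 13.7% of windows (log2 difference -0.64, limma adjusted p = 0.216). For H3K4me1 (4 and 4 libraries), 0 of 7 windows were called by limma against 2.60%. Of the 7, 0 had an unadjusted p under 0.05, against 3897 of all 22812 windows. Over the whole gene, Cpne4 had more H3K4me1 cover in cKO libraries, 72510 ± 6381 bp against 58390 ± 2827 bp (SD, n = 4 each), with separate groups that were not called (log2 difference 0.31, limma adjusted p = 0.0881), against backgrounds of 6.39% called and 4.27% apart with cKO higher.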

How the data were processed

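RNA files held whole-number read counts per Ensembl gene ID for each library, as deposited; the aligner, counter and strand setting are not given in the sources used here. Peak files list MACS2 peaks called per library at a q-value cutoff of 0.1, per the file headers (broad regions for H3K4me1 alone), with a length in bp and a -log10 q-value for each peak as the authors deposited them. The submitters' processing notes name SAMtools, MACS2 and the builds mm10 and GRCm38. Fold enrichments were not used. RNA comparisons used edgeR 4.0.16 (quasi-likelihood, TMM, filterByExpr, Benjamini-Hochberg over all genes tested, calls at adjusted p under 0.05), with DESeq2 1.42.0 as an alternative; peak cover used limma 3.58.1 on log2(bp + 100) over windows with a peak in at least 3 libraries of the mark. Intervals are at 95%. In simulated counts, edgeR recovered 98% of genes changed by 1 log2 unit in the whole CA design and 72.2% in the neuron design. Named genes were the 9 members, Setd1b, up to 3 called genes of each marker list in each comparison, the nearest gene of each member and, chosen after its position was seen, Pced1b. The members and marker lists were chosen with earlier results of these data known. Symbols came from the supplied gene tables, and 99.3% of neuron and 98.9% of whole CA gene IDs had one.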

Additional observations from a re-analysis of the deposited data

Results flagged for a closer look

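Of 50 groups of 4 to 6 libraries examined for a value far from the rest, 4 were marked, and about 1 in 20 groups is marked by chance. All were H3K4me3 cover values. Necab2 in cKO replicate 1 was the lowest of its group, at 1841 bp in the promoter window, and without that library the log2 difference was -0.06 (limma adjusted p = 0.214). Cpne4 in control replicate 1 was the lowest of its group, at 2934 bp, and without it the difference was -0.73 (limma adjusted p = 0.00289). Iyd in cKO replicate 2 was the highest of its group, at 177 bp against 0 bp in the other cKO libraries, at both its promoter and its whole gene. Without it the promoter difference was -3.05. In that fit every cKO value was 0 bp and the window entered through the controls alone, so it had to differ. Causes were not tested.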

How the results depend on the processing

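Of 1356 alternatives computed, 1188 were labelled the same as the main setting. For 1 gene or window this meant the same direction and side of the threshold, and for a count of calls a number of like size. The RNA calls of Amigo2 in both materials, and of Pcp4 and Iyd in whole CA, held under every alternative run. Counts of genes called moved with the setting. In neuron RNA, 539 calls became 821 with DESeq2, 930 at an adjusted p under 0.1, and 207 to 482 without 1 library. In whole CA, 640 became 207 on lane 1 and 224 on lane 2. For the difference between materials, 28 became 69 with no filter, 78 with DESeq2, and 18 to 25 without 1 library. For H3K4me1, 594 promoter windows became 332 with -log10 q of at least 5 (3 lower), 1705 with 5000 bp windows and 318 to 544 without 1 library; 1107 genes became 558 to 1015. For H3K27ac, 79 windows became 5 with an offset of 1000 bp and 11 to 83 without 1 library; 51 genes became 5 and 2 to 58. For H3K9ac, 179 windows became 343 with 5000 bp windows, 314 with the larger offset and 7 to 90 without 1 library; 48 genes became 176 and 1 to 43. Directions turned for 3 values near 0, none called, when 1 library was left out: Rgs14 in neurons (-0.047 to 0.14) and the differences between materials of Necab2 (-0.10 to 0.031) and Cpne7 (-0.16 to 0.030). The causes were not tested.

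Same-numbered libraries were not treated as pairs. Their deviations correlated by -0.25 to 0.43 in neurons, -0.08 to 0.29 in whole CA and -0.09 to 0.09 in ChIP. The cKO libraries of neuron replicate 2 (0.43) and whole CA replicate 4 (0.29) correlated most with the control of their own number. With the replicate number as a block, whole CA RNA had 839 calls in place of 640, and neuron RNA had 327. In the same setting H3K4me1 had 31 windows and 537 genes, H3K27ac and H3K9ac had 0 by limma (2046 and 2102 windows and 1925 and 1445 genes at an unadjusted p under 0.05), and Rgs14 was called in whole CA (edgeR adjusted p = 0.0139). Few counts limit the precision of Iyd in whole CA and of Pcp4 in neurons, where its level is low.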
